A study of Rattus norvegicus with 9 samples.

Results

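Antigen processing and presentation genes were followed in the proximal colon of rats whose dietary protein was whey protein hydrolysate (WPH), soy protein isolate (SPI) or, in the control group, casein (CAS). The 8 genes were RT1-Ba, Cd74, Ctss, B2m, Tap1, Tap2, Psmb8 and Psmb9, and their members on the array were all probe sets whose platform annotation held 1 of these symbols and no other. The 8 genes are among 4737 with a probe set of a single symbol, and the rule took 15 of the 8799 probe sets, with at least 1 for each gene. The rule itself used no measured value, although the 8 genes were chosen with earlier results of these data known. A further probe set whose annotation names B2m together with other genes was left out.

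The rats were male Sprague-Dawley offspring, kept on the diet of their mothers for life, and the diets differed in the protein source alone. All of them, the CAS controls included, received the colon carcinogen azoxymethane (AOM) in 2 subcutaneous injections of 15 mg/kg, a week apart, from 90 days of age, and a tumor-free piece of proximal colon was taken 40 weeks later. Equal amounts of RNA from 7 rats were pooled for each diet, 3 cRNA targets were made in parallel from each pool, and each target was hybridized to 1 Affymetrix rat U34A array. The spread among the 3 arrays of a diet is therefore technical, and the tests set pools of RNA against each other without any measure of how much single rats vary. Rats without AOM were not analysed here, so every value refers to carcinogen-treated colon.

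Cells show peptides to T cells on major histocompatibility complex (MHC) molecules, which are called RT1 in the rat. Class II molecules carry peptides from engulfed proteins and are made mainly by dendritic cells, macrophages and B cells, although gut epithelium can also make them. They are assembled with the invariant chain Cd74, which is removed by lysosomal proteases such as cathepsin S (Ctss). Class I molecules are made by nearly all nucleated cells and pair with B2m. Their peptides are cut by the proteasome, in which interferon can exchange subunits for Psmb8 and Psmb9, and are moved into the endoplasmic reticulum by the transporter Tap1-Tap2.

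In the RefSeq annotation of the rat genome build GRCr8, RT1-Ba, Tap2, Psmb8, Tap1 and Psmb9 lie in the MHC region of chromosome 20. RT1-Ba occupies bases 4577057 to 4581650 on the plus strand. Tap2 (4638257 to 4652296), Psmb8 (4654068 to 4657049) and Tap1 (4658171 to 4668543) follow on the minus strand, and Psmb9 (4668952 to 4674421) on the plus strand. The transcription starts used for the promoter windows were 4668543 for Tap1 and 4669000 for Psmb9. They point away from each other and are 457 bases apart. Ctss lies on chromosome 2 (185775316 to 185803440), B2m on chromosome 3 (129549236 to 129555354) and Cd74 on chromosome 18. The starts used for Psmb9, Psmb8 (4657031), Ctss (185775396) and B2m (129549330) lie within the gene bounds given here. Bases counted as upstream of these starts can therefore fall inside those bounds.

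The bases before the transcription start are shown for the 5 genes whose windows of 200 upstream bases held a complete match to a motif known from MHC gene regulation, each with its position and strand in GRCr8. Capitals mark the Y box (CTGATTGG), the core of the interferon-stimulated response element (GAAANNGAAA) and an NF-kB site (GGGANTTTCC), each searched on both strands. No capitals overlap between motifs.
RT1-Ba, chr20:4576857-4577056, plus strand: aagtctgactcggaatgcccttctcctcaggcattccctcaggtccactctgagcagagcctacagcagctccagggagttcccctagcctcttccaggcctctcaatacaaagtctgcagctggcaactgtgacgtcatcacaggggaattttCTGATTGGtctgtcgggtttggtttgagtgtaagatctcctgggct
Ctss, chr2:185775196-185775395, plus strand: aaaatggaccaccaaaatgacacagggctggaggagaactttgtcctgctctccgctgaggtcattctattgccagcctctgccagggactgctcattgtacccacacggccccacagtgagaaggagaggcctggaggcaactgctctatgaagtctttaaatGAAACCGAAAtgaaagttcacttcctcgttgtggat
B2m, chr3:129549130-129549329, plus strand: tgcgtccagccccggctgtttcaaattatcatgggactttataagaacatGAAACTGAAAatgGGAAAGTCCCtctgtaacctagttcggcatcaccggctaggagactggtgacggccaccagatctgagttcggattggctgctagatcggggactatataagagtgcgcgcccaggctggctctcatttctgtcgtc
Tap1, chr20:4668544-4668743, minus strand: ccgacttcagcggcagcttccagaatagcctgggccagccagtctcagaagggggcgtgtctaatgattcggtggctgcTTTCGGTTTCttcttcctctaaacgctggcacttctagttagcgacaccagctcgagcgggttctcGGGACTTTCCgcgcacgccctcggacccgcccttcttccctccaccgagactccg
Tap2, chr20:4652297-4652496, minus strand: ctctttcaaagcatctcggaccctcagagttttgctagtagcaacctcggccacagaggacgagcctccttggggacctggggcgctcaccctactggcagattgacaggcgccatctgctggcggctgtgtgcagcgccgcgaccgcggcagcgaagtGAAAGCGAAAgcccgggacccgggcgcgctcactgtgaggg

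Over the full RefSeq windows, from 250 bases before to 50 bases after each start, the interferon element core was found in Ctss, B2m, Tap1, Tap2 and Psmb8, thus in 5 of the 8 genes, against 3.92% of all 33469 windows. The Y box was found in RT1-Ba and Psmb9 and in 3.5% of all windows, and in Psmb9 it began 20 bases into the transcript. The NF-kB letters were found in B2m and Tap1 and in 0.362% of all windows. A gamma-activated site (TTCNNNGAA) was found in Psmb8 alone among the 8 genes and in 8.87% of all windows. These matches describe letters and no binding.

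Signals are linear MAS 5.0 values as deposited. Their log2 was compared with limma over the 5606 probe sets whose mean reached 100 in 1 or more of the diets, which included all 15 probe sets of the 8 genes. A call, higher or lower, needed an adjusted p under 0.05. Folds were taken from the mean linear signals of the diets, whereas log2 changes and their standard errors (SE) come from limma. Signals of different probe sets are not set against each other, since probes differ in brightness. The 9 arrays were similar in median signal (149 to 166) and in the share of probe sets at 100 or more (58.7 to 60.3%). The ratio of 3′ to 5′ signal of β-actin was 1.83 to 1.88 with CAS, 2.14 to 2.36 with SPI and 2.53 to 3.5 with WPH, whereas that of GAPDH overlapped among diets (1.34 to 1.71). Wash rounds were inferred from times in the instrument files, with a gap of over 30 minutes taken to start a new round. This placed the arrays in 3 rounds, which the sample labels do not name. CAS 1 to 3 and WPH 2 were in round 1, WPH 1, WPH 3, SPI 1 and SPI 2 in round 2, and SPI 3 in round 3, so that no round held both CAS and SPI. The part of probe position and of wash round in the differences was not tested beyond the values given with each result.

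Compared with CAS, SPI was accompanied by higher signals for K02815_s_at of RT1-Ba, both probe sets of Psmb9, B2m and X13044_at of Cd74. The signal for Ctss was lower. Thus 5 of 15 probe sets were higher and 1 lower, and the other probe sets of RT1-Ba and Cd74 were not called. Over all probe sets tested, 12.0% were higher and 10.2% lower in that comparison. With wash round as a block, 0 of the 15 were higher and 0 lower with SPI against CAS, beside 100 higher and 152 lower over all probe sets. With WPH against CAS, 3 of 15 were higher, all of them Cd74, and 2 were lower, for Ctss and Tap1, against 20.9% higher and 17.9% lower over all probe sets. With SPI against WPH, 4 of 15 were higher, for RT1-Ba, Ctss and Psmb9, and 0 lower, against 10.1% higher and 9.83% lower over all probe sets. At an unadjusted limma p under 0.05 the 15 probe sets held 7 higher and 0 lower for SPI against WPH (14.1% and 17.6% of all), 6 and 1 for SPI against CAS (17.6% and 16%), and 4 and 3 for WPH against CAS (25.5% and 21.0%). For SPI against WPH, the 2-sample test of the study's methods on the same values, after adjustment, called 2 higher and 0 lower. Over all probe sets it called 297 higher and 236 lower. A change of at least 2-fold in addition was met only by Ctss, lower with WPH than with CAS and higher with SPI than with WPH. Over all probe sets, both conditions were met by 5.55% higher and 8.47% lower with WPH against CAS, 2.41% higher and 3.37% lower with SPI against CAS, and 4.48% higher and 1.02% lower with SPI against WPH. The comparisons share arrays and are given side by side for that reason. The median log2 change of the 15 probe sets was -0.03 for WPH against CAS, 0.20 for SPI against CAS and 0.36 for SPI against WPH, beside 0.06, -0.01 and -0.08 over all probe sets tested.

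**Figure D1:**
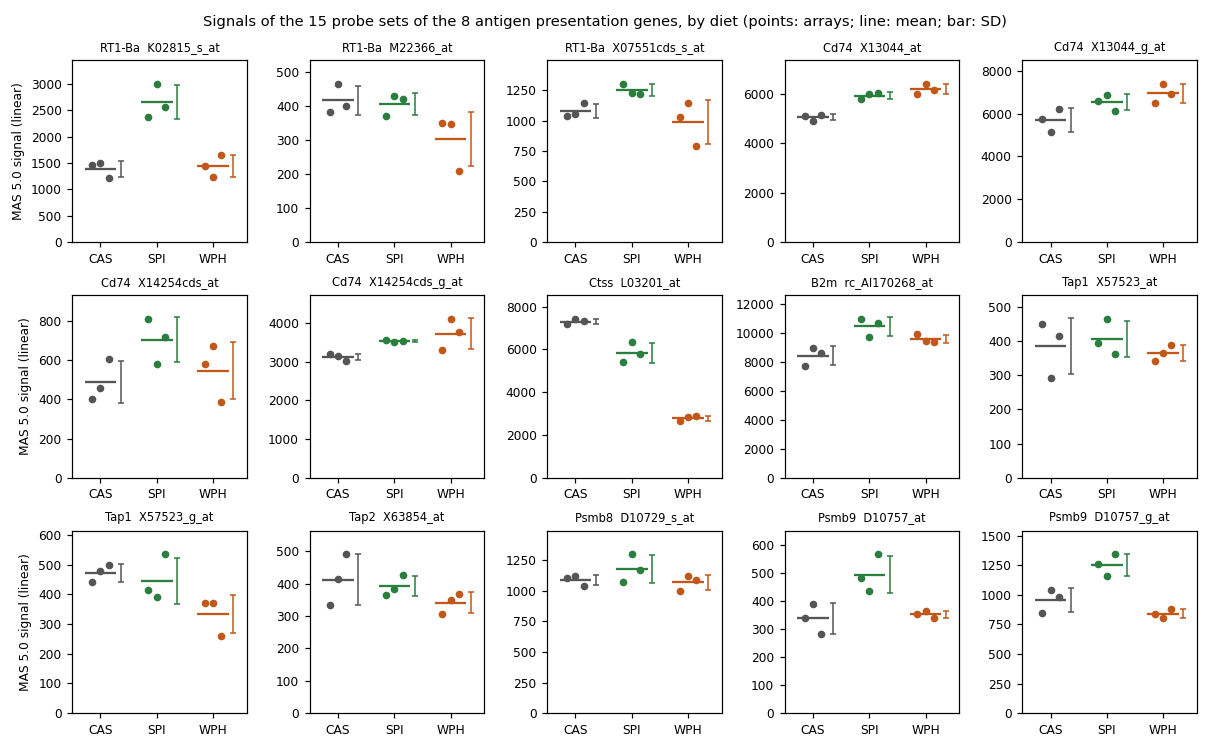
MAS 5.0 signals on a linear scale of the 15 probe sets of the 8 genes on the 9 arrays, with 1 panel per probe set, points for arrays, a line for the mean of the 3 arrays of a diet and a bar for the SD. Ctss on the WPH arrays (2661 to 2875) lies far under the CAS arrays (7173 to 7424), and K02815_s_at of RT1-Ba lies higher on the SPI arrays (2378 to 3006) than on all others.

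Ctss, which encodes the protease that trims the invariant chain, had the largest change among the 15 probe sets. Its signal (L03201_at) was 7173, 7424 and 7309 with CAS, 5392, 6345 and 5792 with SPI, and 2661, 2824 and 2875 with WPH. The diets did not overlap, with CAS highest and WPH lowest. The mean of 2786 ± 112 (SD, n = 3) with WPH was 2.62-fold lower than the mean of 7302 ± 126 with CAS (log2 change -1.39, SE 0.08, limma adjusted p = 2.48e-07).

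The mean Ctss signal with SPI was 5843 ± 478, which was 1.25-fold lower than with CAS (log2 change -0.32, SE 0.08, limma adjusted p = 0.0142) and 2.1-fold higher than with WPH (log2 change 1.07, SE 0.08, limma adjusted p = 4.37e-06). The WPH differences remained past the threshold within a wash round, at -1.37 against CAS (limma adjusted p = 0.000254, with 1 WPH array, assumed to vary like the others) and 1.08 for SPI against WPH (limma adjusted p = 0.00686). The smaller SPI difference was not past it without SPI 1 (adjusted p = 0.0674). Blocking on wash round left its log2 change at -0.29 with an SE of 0.17 (adjusted p = 0.418). Cathepsin B (Ctsb), another lysosomal protease and chosen after its values were seen, was at 4503 ± 27.2 with CAS, 4044 ± 63.1 with SPI and 2368 ± 60.1 with WPH, thus 1.9-fold lower with WPH than with CAS (limma adjusted p = 1.67e-06). The lysosomal cathepsins Ctsh and Ctsl went the other way with WPH, at 1.3-fold (limma adjusted p = 0.00451) and 1.27-fold (limma adjusted p = 0.0258) above CAS. The probe sets of Ctsd differed. Its brighter one, X54467_at, had a log2 change with WPH of -0.16 (limma adjusted p = 0.22). The dimmer one, rc_AI235585_s_at, was 1.38-fold lower with WPH than with CAS (limma adjusted p = 0.0204). The inhibitor of such proteases cystatin C (Cst3) was higher with both diets, its brighter probe set being 2.27-fold above CAS with WPH (limma adjusted p = 4.56e-05) and 1.9-fold above it with SPI (limma adjusted p = 0.000754).

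RT1-Ba, the α chain of the class II molecule RT1.B, had 3 probe sets, and they did not change alike. The signal of K02815_s_at was 1473, 1494 and 1217 with CAS, 2378, 3006 and 2570 with SPI, and 1452, 1237 and 1653 with WPH. All SPI arrays were above all others, whereas CAS and WPH overlapped. The SPI mean was 1.9-fold higher than the CAS mean (log2 change 0.93, SE 0.13, limma adjusted p = 0.000578) and 1.83-fold higher than the WPH mean (log2 change 0.88, SE 0.13, limma adjusted p = 0.000884). Without any 1 array these log2 changes stayed between 0.83 and 1.00 and between 0.77 and 0.98, with adjusted p of at most 0.00361 and 0.00495. Within wash round 2, SPI was 0.79 higher than WPH on the log2 scale (SE 0.16, limma adjusted p = 0.0403). Blocking on wash round reduced the change against CAS to 0.62 (SE 0.24, adjusted p = 0.21).

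The other probe sets of RT1-Ba did not pass the test in any comparison. X07551cds_s_at read 1037, 1054 and 1142 with CAS, 1303, 1228 and 1219 with SPI, and 1030, 1141 and 788 with WPH. Its SPI arrays were above the rest, with a log2 change against CAS of 0.21 (95% confidence interval -0.07 to 0.50). M22366_at read 382, 465 and 399 with CAS, 369, 427 and 421 with SPI, and 349, 345 and 210 with WPH. Its log2 change with SPI against CAS was -0.03 (95% confidence interval -0.46 to 0.39), which does not reach the change of K02815_s_at. The suffix s marks probe sets that can bind several similar transcripts. RT1 genes differ in sequence among rats, Sprague-Dawley is an outbred stock, and which alleles the pooled rats carried is not known here.

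The β chain that pairs with RT1-Ba, RT1-Bb, and the chains of the other class II molecule, RT1-Da and RT1-Db1, were set beside it after their values were seen. RT1-Bb had 4 probe sets past the filter, and they went in opposite directions with SPI. X56596_at read 397, 366 and 431 with CAS, 1013, 1021 and 1014 with SPI, and 222, 255 and 255 with WPH, and was 2.55-fold higher with SPI than with CAS (limma adjusted p = 1.17e-05) and 4.16-fold higher than with WPH (limma adjusted p = 3.53e-07). M36151cds_i_at read 722, 821 and 514 with CAS, 304, 215 and 309 with SPI, and 497, 536 and 838 with WPH, and was 2.49-fold lower with SPI than with CAS (limma adjusted p = 0.00215). U65217_i_at was 1.87-fold lower with SPI (limma adjusted p = 0.00308), and the brightest, M36151cds_s_at, had a log2 change of -0.26 (SE 0.09, limma adjusted p = 0.0583). Thus, of the probe sets annotated as RT1-Bb, 1 rose and 2 fell between the same pools. Which RT1 loci or alleles each of them measures is not known here.

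The probe sets of RT1-Db1 were both higher with SPI in value, and 1 passed the test. X53054_at read 186, 242 and 204 with CAS, 472, 326 and 475 with SPI, and 187, 170 and 192 with WPH, with all SPI arrays above the rest and a 2.01-fold difference from CAS (limma adjusted p = 0.00218). X53054_g_at, designed on the same sequence, had a log2 change of 0.23 (95% confidence interval 0.01 to 0.45, limma adjusted p = 0.133). The α chain RT1-Da was higher with both diets by its brighter probe set M15562_g_at, by 1.27-fold with SPI (limma adjusted p = 0.0246) and by 1.54-fold with WPH (limma adjusted p = 0.000335), whereas M15562_at did not pass the test (adjusted p = 0.104 with WPH and 0.0531 with SPI).

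**Figure D2:**
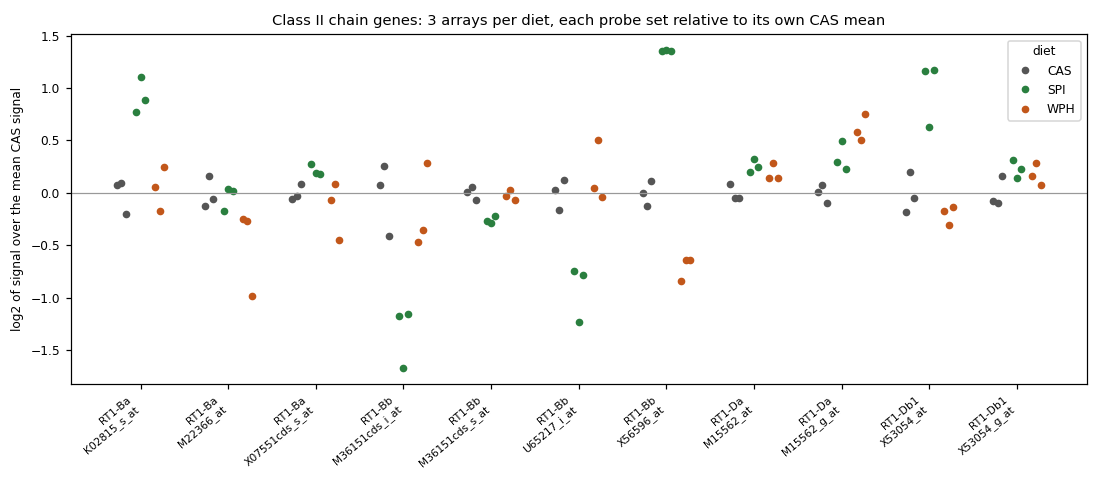
Signals of 11 probe sets of the class II chain genes RT1-Ba, RT1-Bb, RT1-Da and RT1-Db1, each as log2 of the signal over the mean CAS signal of the same probe set, with 3 points per diet for the arrays. With SPI, K02815_s_at, X56596_at and X53054_at stand above the CAS level and M36151cds_i_at and U65217_i_at under it, although the last 2 share their gene with X56596_at.

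Cd74, the invariant chain, was slightly higher with WPH than with CAS. X13044_at read 5112, 4901 and 5133 with CAS, 5773, 5974 and 6021 with SPI, and 5998, 6412 and 6140 with WPH. The CAS arrays were under all others, and SPI and WPH overlapped. WPH was 1.22-fold above CAS (log2 change 0.29, SE 0.07, limma adjusted p = 0.00583), and SPI was 1.17-fold above it (log2 change 0.23, SE 0.07, limma adjusted p = 0.0349).

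X13044_g_at (1.22-fold, limma adjusted p = 0.0286) and X14254cds_g_at (1.19-fold, limma adjusted p = 0.0453) of Cd74 were also higher with WPH, and neither passed the test with SPI (adjusted p = 0.157 and 0.188). The dimmest, X14254cds_at, read 404, 456 and 608 with CAS, 810, 581 and 719 with SPI, and 582, 672 and 386 with WPH, with overlapping diets and no call. The X13044 probe sets come from the same sequence, as do the X14254cds ones, so the 4 are not independent measures of Cd74. Between SPI and WPH the 4 log2 changes were -0.06, -0.09, 0.39 and -0.07, and the 95% confidence intervals all included 0.

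The calls for Cd74 were close to the threshold, except that of X13044_at with WPH, which passed without any 1 array and, at 0.0449, with wash round as a block, but not within round 1 (log2 change 0.35, adjusted p = 0.0659). The call of X13044_g_at was lost with quantile normalization, where the log2 change was 0.15 (limma adjusted p = 0.195). It was also lost without CAS 1 (adjusted p = 0.0641), CAS 2 (0.0978), WPH 2 (0.102) or WPH 3 (0.0645) and with wash round as a block (0.0671), where the log2 change was 0.38 and the SE 0.13. That of X14254cds_g_at was lost without CAS 1 (adjusted p = 0.0828), CAS 2 (0.0781), CAS 3 (0.125), SPI 1 (0.0638), SPI 3 (0.0609), WPH 2 (0.167) or WPH 3 (0.106). The SPI call of X13044_at was lost without any 1 of the CAS or SPI arrays (adjusted p = 0.0665 to 0.108), with quantile normalization (0.267) and with wash round as a block (0.307), where the log2 change was 0.30 and the SE 0.14.

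Over the 9 arrays, the genes whose log2 signals were most like those of the brightest Cd74 probe set, X13044_g_at, were Vat1 (Pearson r = 0.97), Rack1 (0.97), Rpl6 (0.96), Rpl22 (0.95) and Mdh1 (0.95). Its correlation with X13044_at of the same gene was 0.87. These values are descriptions over 9 arrays that come from 3 pools.

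B2m, the light chain of class I molecules, read 7671, 8966 and 8593 with CAS, 10940, 9710 and 10664 with SPI, and 9888, 9416 and 9363 with WPH. The CAS arrays were under all others, and SPI and WPH overlapped. SPI was 1.24-fold higher than CAS (log2 change 0.31, SE 0.08, limma adjusted p = 0.0181), and WPH was 1.14-fold higher without passing the test (log2 change 0.19, SE 0.08, adjusted p = 0.0955). The SPI call was lost without CAS 1 (adjusted p = 0.0846), SPI 1 (0.075) or SPI 3 (0.0664), with quantile normalization (0.179) and with wash round as a block (0.468), where the log2 change was 0.27 and the SE 0.17. RT1-A, a class I heavy chain named after its values were seen, was 1.39-fold lower with WPH than with CAS (limma adjusted p = 0.00166) by a probe set shared by a family of similar transcripts, and had a log2 change of -0.22 with SPI (adjusted p = 0.126).

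Psmb9, a catalytic subunit that replaces a constitutive one in the immunoproteasome, was higher with SPI by both of its probe sets, which were designed on the same sequence. D10757_g_at read 847, 1042 and 985 with CAS, 1264, 1159 and 1343 with SPI, and 843, 804 and 879 with WPH. All SPI arrays were above all others, and CAS and WPH overlapped. SPI was 1.31-fold higher than CAS (log2 change 0.39, SE 0.11, limma adjusted p = 0.0238) and 1.49-fold higher than WPH (log2 change 0.57, SE 0.11, limma adjusted p = 0.00361).

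D10757_at of Psmb9 read 342, 391 and 284 with CAS, 483, 438 and 568 with SPI, and 356, 364 and 340 with WPH. SPI was 1.46-fold higher than CAS (limma adjusted p = 0.0208) and 1.4-fold higher than WPH (limma adjusted p = 0.0425), again with no overlap. Against CAS, both calls were lost without CAS 1 (adjusted p = 0.0535 for D10757_at and 0.104 for D10757_g_at), CAS 3 (0.0847 and 0.0513), SPI 1 (0.0545 and 0.0715) or SPI 3 (0.0888 and 0.0906). Against WPH, the call of D10757_at was lost without CAS 1 (adjusted p = 0.0596), SPI 1 (0.0962), SPI 3 (0.16), WPH 1 (0.0834), WPH 2 (0.0845) or WPH 3 (0.108), and that of D10757_g_at was kept without each array. Within wash round 2 the SPI-WPH log2 changes were 0.40 and 0.49 (adjusted p = 0.258 and 0.109), and after blocking on wash round the SPI-CAS changes were 0.52 and 0.24 (adjusted p = 0.366 and 0.614).

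Psmb8, the second immunoproteasome subunit measured, passed no test. It read 1105, 1117 and 1042 with CAS, 1069, 1297 and 1168 with SPI, and 998, 1118 and 1088 with WPH, with all diets overlapping. Its log2 change was 0.11 with SPI against CAS (95% confidence interval -0.11 to 0.34), -0.03 with WPH against CAS (-0.25 to 0.20) and 0.14 with SPI against WPH (-0.09 to 0.36). The difference between the changes of Psmb9 and Psmb8 was not tested. Psmb5, the constitutive counterpart of Psmb8, was 1.37-fold higher with WPH than with CAS by its brightest probe set (limma adjusted p = 0.00439) and had a log2 change of 0.20 with SPI (adjusted p = 0.216). The genes most like Psmb8 over the 9 arrays were Nsun4 (r = 0.89), Renbp (0.88), Lipa (0.87), Timp1 (0.85) and Apeh (0.83).

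Tap1 and Tap2, the subunits of the peptide transporter, had mean signals from 334 to 473 in the diets, and 1 call was made among their 3 probe sets. X57523_g_at of Tap1 read 440, 479 and 499 with CAS, 415, 390 and 535 with SPI, and 370, 371 and 260 with WPH. The WPH arrays were under all others, and WPH was 1.42-fold lower than CAS (log2 change -0.52, SE 0.17, limma adjusted p = 0.0319). That call was lost without CAS 2 (adjusted p = 0.0744), CAS 3 (0.0966) or WPH 3 (0.111) and within wash round 1 (log2 change -0.35, adjusted p = 0.192). X57523_at of the same gene read 449, 292 and 416 with CAS, 393, 464 and 362 with SPI, and 341, 364 and 389 with WPH, and its log2 change with WPH was -0.06 (95% confidence interval -0.44 to 0.32).

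Tap2 read 333, 415 and 490 with CAS, 365, 384 and 428 with SPI, and 305, 351 and 369 with WPH. Its diets overlapped, and its log2 changes were -0.26 with WPH against CAS (95% confidence interval -0.61 to 0.09) and -0.06 with SPI against CAS (-0.40 to 0.29). Psmb9 and Tap1, whose starts lie back to back, therefore had different sets of calls, Psmb9 for SPI and Tap1 for WPH by 1 of its probe sets, and a difference between them was not tested.

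**Figure D3:**
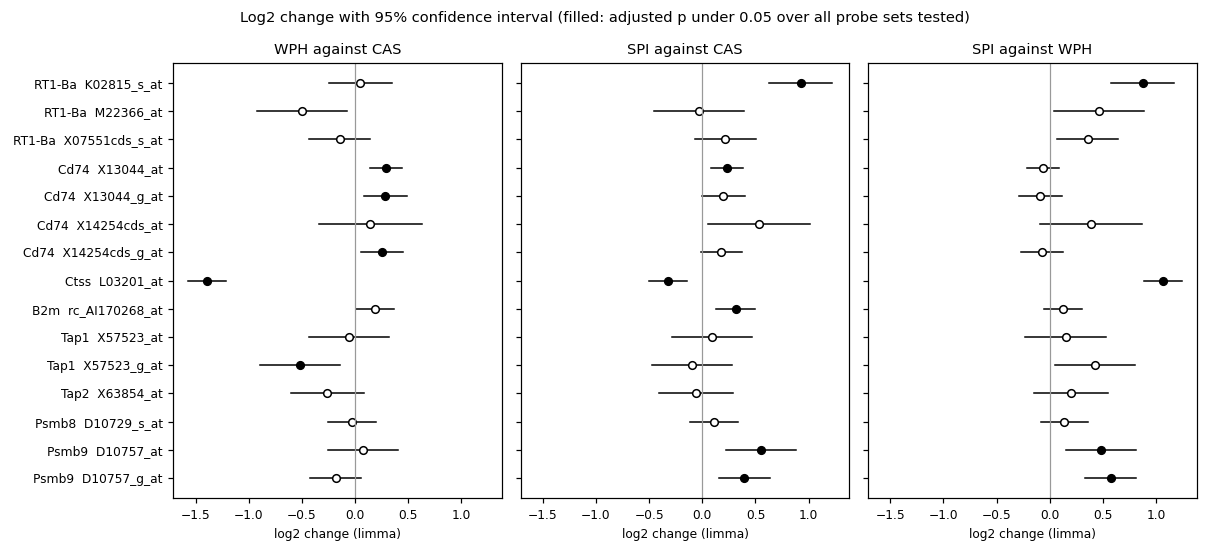
Log2 changes from the limma fit of the 15 probe sets in the 3 comparisons, with 95% confidence intervals as lines and filled points for adjusted p under 0.05 over the 5606 probe sets tested. The points farthest from 0 are those of Ctss for WPH against CAS (-1.39) and SPI against WPH (1.07) and of K02815_s_at of RT1-Ba for SPI against CAS (0.93) and SPI against WPH (0.88).

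Further genes of these pathways were taken from lists. The class II, class I and proteasome lists also held the genes followed above. Their counts and medians therefore include those genes and are not independent of the results above. Each gene was represented by its brightest probe set. Over all 3389 genes tested in this way, 21.3% were higher and 18.1% lower with WPH against CAS, 11.7% and 10.7% with SPI against CAS, and 10.2% and 10.6% with SPI against WPH. Of 14 genes of the class II pathway tested, 6 were higher and 1 lower with SPI against CAS, 5 higher and 2 lower with WPH against CAS, and 4 higher and 0 lower with SPI against WPH. The median log2 changes of that list were 0.21, 0.11 and 0.06, beside -0.02, 0.07 and -0.08 over all genes. Besides RT1-Ba and RT1-Da, the genes higher with SPI than with CAS were the cathepsins Ctsd, Ctsh and Ctsl and the inhibitor Cst3. The gene lower with SPI than with CAS was Ctss, and those higher with SPI than with WPH included RT1-Ba and Ctss.

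Of 17 class I pathway genes, 1 was higher and 0 lower with SPI against CAS, namely B2m, and 1 was higher and 3 lower with WPH against CAS. Their median log2 changes were -0.09 and -0.21, and 0.14 with SPI against WPH, where 1 was higher and 0 lower. Of 15 proteasome genes, 6 were higher and 0 lower with SPI against CAS (median log2 change 0.33), 4 higher and 1 lower with WPH against CAS (0.05), and 1 higher and 0 lower with SPI against WPH (0.17). Those higher with SPI were Psmb9, the constitutive subunits Psmb2, Psmb3 and Psma5, and the activator subunits Psme1 and Psme2, 1.35-fold and 1.3-fold (limma adjusted p = 0.00959 and 0.0471), the last 5 named after their values were seen. WPH was likewise 1.3-fold above CAS in Psme1 (limma adjusted p = 0.012). The other probe set of Psme1 past the filter, D45249_at, had a log2 change with SPI against CAS of -0.10 (limma adjusted p = 0.773).

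Of 15 interferon response genes, 2 were higher and 1 lower with SPI against CAS, 3 higher and 3 lower with WPH against CAS, and 1 higher and 0 lower with SPI against WPH, with median log2 changes of -0.06, 0.03 and 0.09. Rsad2, an antiviral gene induced by interferon, was 2.24-fold lower with SPI (limma adjusted p = 0.00313) and 2.2-fold lower with WPH (limma adjusted p = 0.00213) than with CAS. Gbp2, a GTPase induced by interferon, moved the other way from a mean signal of 57.9 with CAS, under 100 on all CAS arrays, to 157 with SPI (log2 change 1.59, SE 0.46, limma adjusted p = 0.0295) and 142 with WPH (log2 change 1.40, SE 0.46, limma adjusted p = 0.0324). The share of interferon response genes that were higher with SPI was thus 2 of 15, beside 11.7% of all genes.

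Cell type markers moved with the diets, and in tissue RNA fewer cells of a type and less RNA per cell cannot be told apart. The summed signal of 15 macrophage and dendritic cell markers was 7039 to 7798 with CAS, 12842 to 13155 with SPI and 10145 to 10588 with WPH, with 4 of 11 tested genes higher and 1 lower in each comparison with CAS. Lyz2 made up much of that sum, and the other 14 markers summed to 4513 to 5467 with CAS, 6131 to 6389 with SPI and 6931 to 7083 with WPH, so that SPI was the highest only with Lyz2 included. Lyz2, a lysozyme of macrophages, was 2.77-fold higher with SPI and 1.38-fold higher with WPH than with CAS, and C1qb, a complement gene of tissue macrophages, 1.81-fold and 1.51-fold. Coro1a, found in leukocytes generally, was 1.9-fold higher with WPH and had a log2 change of -0.05 with SPI. The marker that was lower was Cd14, a receptor for bacterial lipopolysaccharide on monocytes and macrophages, 1.72-fold with SPI (limma adjusted p = 0.00359) and 2.02-fold with WPH (limma adjusted p = 0.000249) by its brighter probe set. The macrophage genes Csf1r and Itgam and the costimulatory gene Cd80 were under 100 on all arrays.

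The summed signal of 15 T and NK cell markers was 1837 to 2110 with CAS, 2560 to 2734 with SPI and 3035 to 3270 with WPH. The T cell receptor component Cd3d was 1.99-fold higher with SPI and 2.75-fold with WPH, and Cd3g was 2.68-fold and 2.25-fold higher. The kinase Lck passed the test with WPH (1.58-fold) and not with SPI (log2 change 0.19). Cd2, Cd28, Prf1, Klrb1a and Klrd1 were under 100 on all arrays. Of the B and plasma cell list only 3 genes had a probe set of their own symbol, and no immunoglobulin gene was among them. Cd24, which epithelium also expresses, made up most of the sum of these 3, at 6105 to 6410 with CAS, 4611 to 5160 with SPI and 2891 to 2980 with WPH. The paper lists several immunoglobulin transcripts as higher with SPI than with CAS, and the Ig gamma heavy chain also with WPH. The B cell receptor component Cd79b had log2 changes of -0.21 with SPI and -0.01 with WPH, neither past the test, and Cd37 was 1.26-fold higher with WPH.

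Epithelial markers were lower with WPH for 15 of 15 genes and with SPI for 8 of 15, and their sum was 86204 to 89856 with CAS, 59490 to 60656 with SPI and 23439 to 24868 with WPH. Krt8, Tspan8 and Lgals4, the brightest of them, were 2.71-fold, 3.33-fold and 1.45-fold lower with WPH than with CAS. Unlike the macrophage and dendritic cell sum, which was lowest with CAS, the Ctss signal had the order of the diets in the epithelial sum. Smooth muscle markers (sum 119078 to 121408 with CAS, 170009 to 173456 with SPI and 227595 to 258267 with WPH) and markers of enteric neurons and glia (4875 to 5372, 7659 to 9012 and 12932 to 14783) ran the other way. Actg2, Tpm1 and Myl9 of muscle were 2.01-fold, 1.97-fold and 2.03-fold higher with WPH, and Uchl1, Prph and S100b of neurons and glia 3.37-fold, 2.82-fold and 2.71-fold. The mean signals of X13044_at, X13044_g_at and X14254cds_g_at of Cd74 also rose in the order CAS, SPI, WPH, whereas that of X14254cds_at was highest with SPI. The part of the shifts in cell type markers in the changes of the 8 genes was not tested. The summed signal of the 8 genes themselves, by the brightest probe set of each, was 24791 to 26361 with CAS, 28429 to 29155 with SPI and 23018 to 23517 with WPH. Bright probe sets weigh most in such sums, and the lower value with WPH came from Ctss, since the other 7 genes summed to 17619 to 19053 with CAS, 22810 to 23037 with SPI and 20357 to 20693 with WPH.

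**Figure D4:**
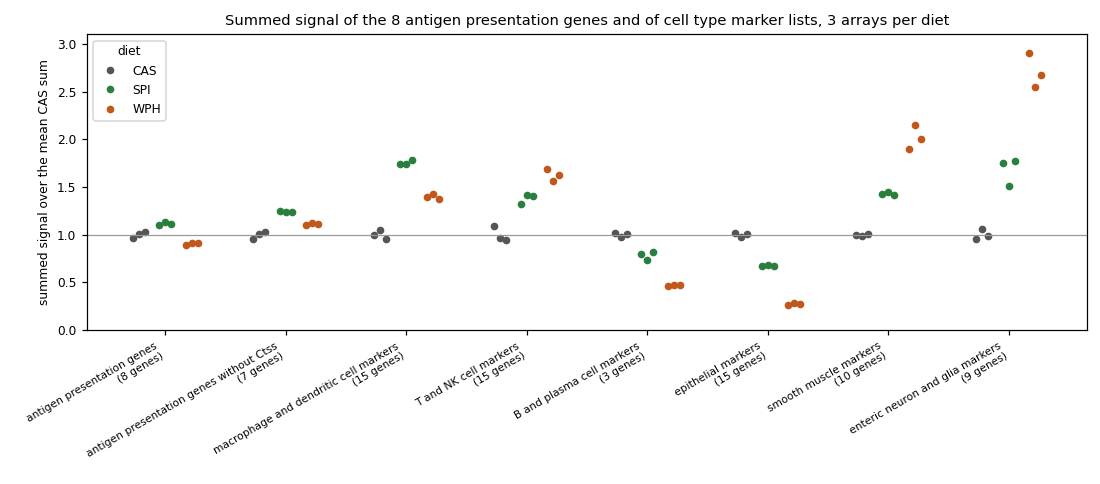
Summed signals of the 8 antigen presentation genes, of the 7 without Ctss and of 6 lists of cell type markers, by the brightest probe set of each gene, on a linear axis from 0 relative to the mean sum of the CAS arrays, with 3 points per diet for the arrays. WPH lies under CAS in the sum of the 8 genes and above CAS without Ctss, and the diets lie farther apart in the sums of epithelial, smooth muscle, and neuron and glia markers.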

How the data were processed

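The authors scanned the arrays and computed intensity values with MAS 5.0, scaling the average of each array to 500, and the deposited values are linear signals without detection calls. The instrument files were read only for wash times. Signals under 0.1 were set to 0.1 and changed to log2 with no further normalization. The 59 Affymetrix controls were left out, and 5606 of 8740 other probe sets had a mean of at least 100 in at least 1 diet. All 9 arrays were fitted in 1 limma model with a variance trend (limma 3.58.1, R 4.3.3), with p-values of each comparison adjusted over the 5606 (Benjamini-Hochberg). The code was tested on simulated data. Precision is limited by 3 arrays per diet. Of the probe sets, 7018 had a single symbol in the annotation, 308 had more than 1 and 1473 had no symbol.

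The members and lists were chosen with earlier results of these data known. Each member was named with all its probe sets. Pathway genes were named at an adjusted p under 0.05 and 2-fold (at most 6 per list), markers as the 3 brightest per list, Psmb5 as a constitutive counterpart (Psmb6 and Psmb7 had no probe set of their own symbol here), 5 genes by correlation with Cd74 and with Psmb8, and all other genes were chosen after their values were seen. Promoters and coordinates are from RefSeq (GRCr8), with a window for each of the 8 genes, and the Cd74 window is not printed. Python 3.11.15 with numpy 2.4.6, pandas 2.3.3 and matplotlib 3.10.9 was used.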

Additional observations from a re-analysis of the deposited data

How the results depend on the processing

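Of 15 changes called among the 45 of the 15 probe sets, 2 kept their call under all 24 alternatives, namely those of Ctss in WPH against CAS and in SPI against WPH, and 13 lost it under at least 1. Probe sets higher with WPH against CAS numbered 3, and 1 without a variance trend, within the wash round, by the methods' t-test after adjustment or at an adjusted p under 0.01, and 0 at 2-fold in addition. Those lower numbered 2, and 1 with no filter, with wash round as a block, within the wash round, by the adjusted methods' t-test, at 0.01 or at 2-fold. Those higher with SPI against CAS numbered 5, but 3 with quantile normalization, without a trend or by the adjusted methods' t-test, 1 at 0.01 and 0 with wash round as a block or at 2-fold, and the 1 lower became 0 without a trend, with wash round as a block, by the adjusted methods' t-test, at 0.01 or at 2-fold. Those higher with SPI against WPH numbered 4, but 2 with wash round as a block, within the wash round or by the adjusted methods' t-test, and 1 at 2-fold. The cause of these differences was not tested. Over all probe sets, quantile normalization gave 624 higher with SPI against CAS in place of 673. Leaving out 1 array gave 1 to 3 higher and 1 to 3 lower (WPH against CAS), 1 to 5 and 0 to 1 (SPI against CAS), and 3 to 4 and 0 to 0 (SPI against WPH).

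With the replicate number as a block, the counts were 1 higher and 1 lower (WPH against CAS), 3 and 1 (SPI against CAS), and 3 and 0 (SPI against WPH). Over all probe sets that block gave 1076 higher and 936 lower, 537 and 493, and 481 and 409 in these comparisons. The replicate numbers do not pair the arrays, since deviations of same-numbered arrays correlated between -0.28 and 0.24 and only 1 of 9 correlations was over 0.1. Over all probe sets, wash round as a block gave 731 in place of 1174 higher (WPH against CAS), 100 in place of 673 higher and 152 in place of 570 lower (SPI against CAS), and 352 in place of 565 and 208 in place of 551 (SPI against WPH). Within a wash round 747 were higher with WPH against CAS, and 221 higher and 94 lower with SPI against WPH. The adjusted methods' t-test gave 383 higher and 378 lower (SPI against CAS) and 297 and 236 (SPI against WPH), and unadjusted 853 lower (SPI against WPH), where 360 were lower without SPI 1 and 343 without WPH 2. At the methods' unadjusted threshold their t-test called 2 higher and 2 lower of the 15 (WPH against CAS, beside 22.7% and 18.4% of all probe sets), 7 and 1 (SPI against CAS, 15.3% and 14.5%), and 4 and 0 (SPI against WPH, 11.8% and 15.2%).

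Of the changes not called, 5 were called under at least 1 alternative. They were M22366_at for WPH against CAS without WPH 1 (-0.62, adjusted p = 0.038) or WPH 2 (-0.61, 0.0465), B2m for WPH against CAS with median centring (0.23, 0.0491), X14254cds_g_at for SPI against CAS by the methods' t-test (0.18, 0.0193 after adjustment), X07551cds_s_at for SPI against CAS by that test unadjusted (0.21), and X07551cds_s_at for SPI against WPH without WPH 2 (0.47, 0.0389).

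Changes that were not called took the other sign as follows. With wash round as a block, and within the wash round, K02815_s_at became -0.17, X07551cds_s_at 0.084 and Psmb8 0.0395 for WPH against CAS, and X13044_g_at 0.0052 and X14254cds_g_at 0.0033 for SPI against WPH. With the block, M22366_at became 0.29 and X57523_g_at 0.026 for SPI against CAS. Quantile normalization gave -0.006 for B2m and 0.0539 for Psmb8 with WPH and 0.0181 for M22366_at with SPI against CAS, and median centring gave 0.0149 for Psmb8 with WPH. Leaving out 1 array gave, for WPH against CAS, -0.0514 to 0.16 for K02815_s_at, -0.26 to 0.0103 for X07551cds_s_at, -0.0233 to 0.38 for X14254cds_at, -0.25 to 0.0647 for X57523_at, -0.062 to 0.020 for Psmb8 and -0.0493 to 0.18 for D10757_at. For SPI against CAS it gave -0.091 to 0.0512 for M22366_at, -0.10 to 0.21 for X57523_at and -0.20 to 0.0747 for Tap2, and for SPI against WPH -0.16 to 0.0021 for X14254cds_g_at.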
